A study of Ovis aries with 60 samples.

Results

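The acrosome and egg-binding genes are proteins of the sperm head with which the cell meets the egg. They were taken as a list of 10 genes: ACR, ACRBP, SPACA1, SPACA3, ZPBP, ZPBP2, IZUMO1, ADAM2, EQTN and SPESP1. Of these, 9 were found by symbol among the 28525 genes of the RNA count table and are described here; ADAM2, a surface subunit of fertilin, was not found by symbol and was not analysed here. All 9 had counts, but 7 of them had few, at median levels like those of genes best known from other organs.

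The series followed Polypay sheep for which only the founder (F0) rams differed in diet. The founders were twin brothers, and within a pair the feed differed only by methionine in a form protected from the rumen, which 1 of the brothers was given between weaning and puberty. All females were untreated, all F1 and F2 animals ate the control diet, and each F2 ram descended in the male line from an F0 ram through 1 F1 ram. RNA was sequenced from the sperm of 20 F2 rams, 10 of the methionine line and 10 of the control line, 2 for each of 10 F0 sires. Rams are named here by the titles of their samples, which end in T in the methionine line and C in the control line. The labels give no age at semen collection and do not say which F0 sires were twins of each other. The diet lines are therefore lines of descent, and neither group of F2 rams was itself treated.

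The acrosome is a flat vesicle over the front of the sperm nucleus, built from the Golgi of round spermatids. On contact with the egg its membrane opens and releases enzymes and matrix proteins onto the egg coat, the zona pellucida, and the membrane of its equatorial segment then takes part in fusion with the egg. Its genes are transcribed in spermatids, and a mature sperm, which has almost stopped transcription, carries only what is left of these messages.

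The libraries held from 805831 to 13137757 counts. Levels are given as CPM, the counts of a gene scaled to a fixed total per library, with that total corrected by the trimmed mean of M-values (TMM), whose factors ran from 0.361 to 2.54. The label sperm was checked against marker lists. A list of 32 late germ cell genes of tail, chromatin and energy supply, none of them acrosomal, summed to between 635 and 42265 CPM, and CCDC168 alone gave 29.5 to 82.7% of its counts. Markers of stratified squamous epithelium (16 genes) summed to between 179 and 65568 CPM, and markers of leukocytes (18 genes) to between 108 and 22818 CPM. No gene of these 3 lists was at 0 in all libraries. Only in 5 libraries, those of rams SpermRNA359T, SpermRNA485C, SpermRNA382T, SpermRNA475C and SpermRNA413C, did the spermatid sum exceed the squamous and leukocyte sums together. The 4 richest in spermatid markers were from rams SpermRNA359T and SpermRNA382T of the methionine line, with 42265 and 28013 CPM, and rams SpermRNA485C and SpermRNA475C of the control line, with 36091 and 14024 CPM. They were set apart at a sum of 10000 CPM, a cut chosen after the data were seen. The next library, SpermRNA340T, had 8850 CPM. The widest log2 gap between neighbouring sums, 0.998, lay between SpermRNA475C and SpermRNA382T and not at this cut. In sperm RNA of this kind, fewer germ cells in a sample and less of a message in each cell cannot be told apart, and a ratio to such libraries is a ratio to a mixture.

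The first question was whether the message levels of the 9 genes differed between the diet lines 2 generations after the diet. For every member the values of both lines overlapped, and how many of all genes did so was not counted. No member passed the test. The background was the same: edgeR's quasi-likelihood test with Benjamini-Hochberg adjustment called 0 of 13577 genes (0%), with 104 genes (0.766%) at an unadjusted p under 0.05, and DESeq2 called 0 of the same genes, with 174 at an unadjusted p under 0.05. A gene entered this test if it reached a count of 15 in over 10 of the 20 libraries. Only ACRBP and SPESP1 did so. The other 7 members were tested in a fit of all 27658 genes with a count. That fit called 0 (0%) and had 715 (2.59%) at an unadjusted p under 0.05. Both edgeR shares are smaller than the share of 0.05 that a test gives on average where no gene differs. The lack of calls therefore does not show that the lines were alike. Without the filter, DESeq2 called 2 genes and edgeR called 1 gene when ram SpermRNA340T or ram SpermRNA480T was left out, none of them a member. P-values here measure the spread between rams, and the 2 rams of a sire were treated as separate.

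**Figure D1:**
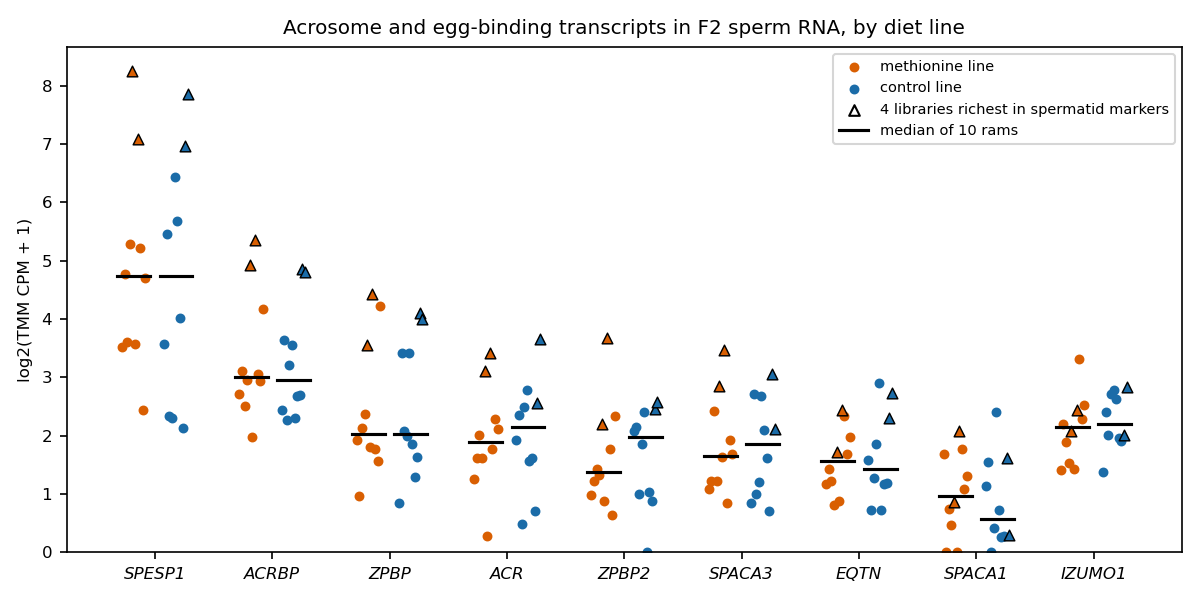
Level of each member, as log2(TMM CPM + 1), in 20 F2 sperm RNA libraries, with 1 point a ram, the median of each line as a black bar and the 4 libraries richest in spermatid markers as triangles. The lines overlap for every gene, and the triangles are the 4 highest points for SPESP1 and ACRBP but lie among the others for IZUMO1 and SPACA1.

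Of the enzyme and matrix proteins, ACR is acrosin, the trypsin-like protease stored as proacrosin. ACR ran from 0.21 through a median of 2.73 to 9.70 CPM in the methionine line and from 0.404 through 3.46 to 11.6 CPM in the control line. The range of one line lay nearly over that of the other, and the counts behind these values were 1 to 49 a library. The log2 fold change of ACR, methionine line over control line, was -0.09 with an SE of 0.46 (adjusted p = 1.0, edgeR without the filter).

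ACRBP binds proacrosin and keeps it packed in the acrosomal matrix. ACRBP ran from 2.94 through 7.04 to 40.0 CPM in the methionine line and from 3.84 through 6.87 to 27.8 CPM in the control line. In each line 2 rams stood above the rest, at 29.3 and 40.0 CPM (rams SpermRNA359T and SpermRNA382T) and at 27.0 and 27.8 CPM (rams SpermRNA485C and SpermRNA475C). These were the 4 libraries richest in spermatid markers, 2 in each line. The log2 fold change was 0.22 with an SE of 0.48 (adjusted p = 1.0, edgeR), and its 95% interval of -0.80 to 1.24 corresponds to a ratio between 0.576 and 2.36.

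Of the proteins of the acrosomal membrane and its equatorial segment, SPESP1 (sperm equatorial segment protein 1) had by far the most counts, 5039 of the 20 libraries together or 65.1% of all member counts, which are not corrected for gene length. SPESP1 ran from 4.45 through 25.7 to 303 CPM in the methionine line and from 3.39 through 29.0 to 229 CPM in the control line. The medians were close, and the spread within either line was far wider than the difference between them. The log2 fold change was 0.08 with an SE of 0.79 (adjusted p = 1.0, edgeR), and the 95% interval of -1.57 to 1.74 leaves room for a ratio from 0.336 to 3.33.

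SPACA1 is a protein of the inner acrosomal membrane, without which the acrosome does not take its shape. It was the member with the fewest reads, with 80 counts in all and none in 3 libraries, 2 of the methionine line (rams SpermRNA323T and SpermRNA372T) and 1 of the control line (ram SpermRNA400C). SPACA1 ran from 0 through 0.963 to 3.23 CPM in the methionine line and from 0 through 0.491 to 4.31 CPM in the control line. Its median was 2.5 counts a library, and the log2 fold change of 0.17 had an SE of 0.65 (adjusted p = 1.0, edgeR without the filter).

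SPACA3 is a lysozyme-like protein of the acrosome. SPACA3 ran from 0.809 through 2.15 to 10.1 CPM in the methionine line and from 0.636 through 2.67 to 7.34 CPM in the control line, and the log2 fold change was 0.09 with an SE of 0.44. EQTN, equatorin, lies on the acrosomal membrane and is retained at the equatorial segment after the acrosome opens. EQTN ran from 0.756 through 1.97 to 4.44 CPM and from 0.646 through 1.71 to 6.46 CPM in the methionine and control lines, and the log2 fold change was -0.29 with an SE of 0.40. Neither passed the test (both adjusted p = 1.0, edgeR without the filter).

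ZPBP and ZPBP2 are paired matrix proteins, named for binding the zona pellucida and needed for a compact acrosome. ZPBP ran from 0.949 through 3.08 to 20.6 CPM in the methionine line and from 0.806 through 3.10 to 16.2 CPM in the control line. ZPBP2 ran from 0.556 through 1.60 to 11.7 CPM in the methionine line and from 0 through 2.93 to 4.97 CPM in the control line, where ram SpermRNA449C had no count. The highest ram of both genes was ram SpermRNA382T of the methionine line. The log2 fold change was 0.04 for both, with an SE of 0.51 for ZPBP and 0.48 for ZPBP2 (both adjusted p = 1.0, edgeR without the filter).

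IZUMO1 is the ligand on the sperm that binds the egg receptor JUNO at fusion. IZUMO1 ran from 1.67 through 3.43 to 8.90 CPM in the methionine line and from 1.61 through 3.67 to 6.16 CPM in the control line. Over all 20 libraries its values were the most even of the members, with an SD of 0.53 on the log2(CPM + 1) scale, against 1.88 for SPESP1. The log2 fold change was -0.19 with an SE of 0.31 (adjusted p = 1.0, edgeR without the filter), and its 95% interval of -0.83 to 0.46 was the narrowest of the 9.

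**Figure D2:**
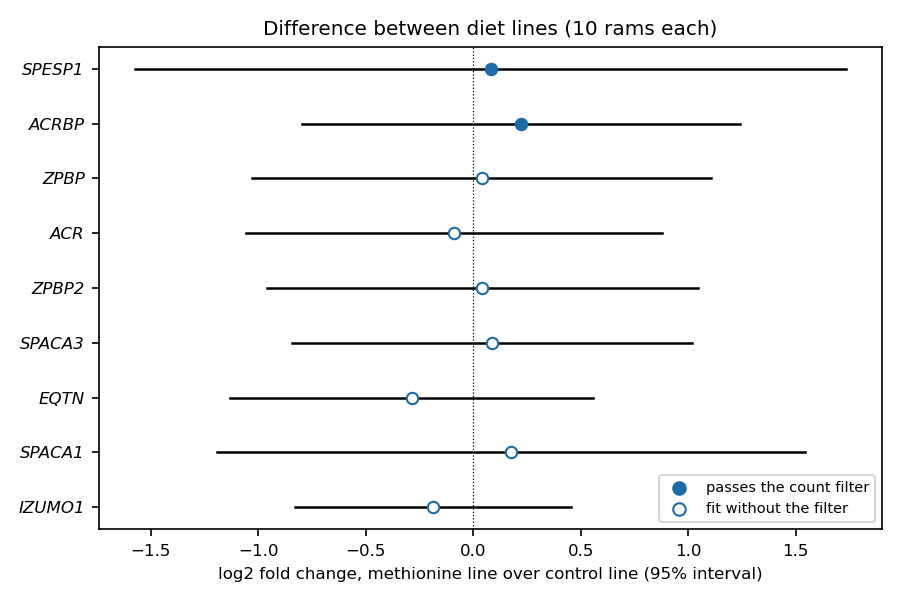
Log2 fold change of each member, methionine line over control line, with its 95% interval from the edgeR fit of 10 rams against 10; filled points passed the count filter and open points come from the fit without it. Every interval spans 0, and they range in width from that of IZUMO1 (-0.83 to 0.46) to that of SPESP1 (-1.57 to 1.74).

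Of the 9 log2 fold changes, 6 were above 0 in the fit without the filter, with a median of 0.04, beside a median of -0.08 over the 27658 genes of that fit. The direction of 7 of the 9 turned under at least 1 other scaling, choice of rams or model, and only IZUMO1 and EQTN stayed below 0 under every one tried. All 18 leukocyte markers had a log2 fold change below 0 in the filtered fit, beside 57.2% of all genes. Their median was -0.60 and 0 were called. The markers share their cells, so they are not 18 separate results. Library SpermRNA350C of the control line summed to 22818 CPM of them, and the next control library (SpermRNA366C) to 4159 CPM. The medians of the sum were 1338 CPM in the methionine line and 2228 CPM in the control line. How far the fold changes rested on SpermRNA350C was not tested. The summed level of the leukocyte markers was lower in the methionine line by 0.12 on the log2 scale on average. This did not pass the permutation test either (adjusted p = 0.950). With the squamous and leukocyte levels of each library as covariates, no member passed the test either. The spermatid sum was higher in the methionine line by 0.57 on the log2 scale, with a mean of 12.3 ± 1.75 against 11.7 ± 1.85 (SD, n = 10 each; adjusted p = 0.950 over 10 lists, two-sided permutation test). The adjusted p was 0.950 for each of the other 9 lists too.

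Rams of a sire differed about as much as rams of different sires, with median log2 differences of 0.67 (IZUMO1) to 1.96 (SPESP1) within sires and 0.62 (IZUMO1) to 1.83 (SPESP1) between them. For SPESP1 the median log2 difference was 1.96 over the 10 pairs of rams of 1 sire and 1.83 over the 80 pairs of rams of different sires of a line. For ACRBP these were 1.08 and 1.07. In sire 9, ram SpermRNA372T had 2.94 CPM and ram SpermRNA382T had 40.0 CPM of ACRBP, the widest pair for that gene. The 4 rams richest in spermatid markers, of sires 5, 9, 10 and 6, each had a sire-mate outside the 4 richest libraries, and the spread of the members ran within sires as much as between them. The test of sires within lines called 0 of 13577 genes (0%), with 184 at an unadjusted p under 0.05 and 0 called with DESeq2's size factors. ACRBP had p = 0.468 and SPESP1 p = 0.184 before adjustment in this edgeR test. Without the filter it called 10 of 27658 genes (0.0362%), none a member, and SPESP1 had an unadjusted p of 0.0741.

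The second question was how the members varied with what each library held. The members followed the spermatid list to different degrees, from r = 0.95 for SPESP1 to r = 0.29 for IZUMO1 under TMM. With library totals in place of TMM the range was narrower, from 0.97 for SPESP1 to 0.60 for SPACA1, with IZUMO1 at 0.69 and EQTN at 0.73. These r are Pearson correlations of log2(TMM CPM + 1) with the log2 spermatid sum over 20 libraries, which share the same library size on both axes. They are a description without a test. Over the 13577 genes of the filter, the median r with the list was -0.06, and 23.6% had an r above 0.5. Most members did not pass that filter, so these genes are not matched to them in counts.

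**Figure D3:**
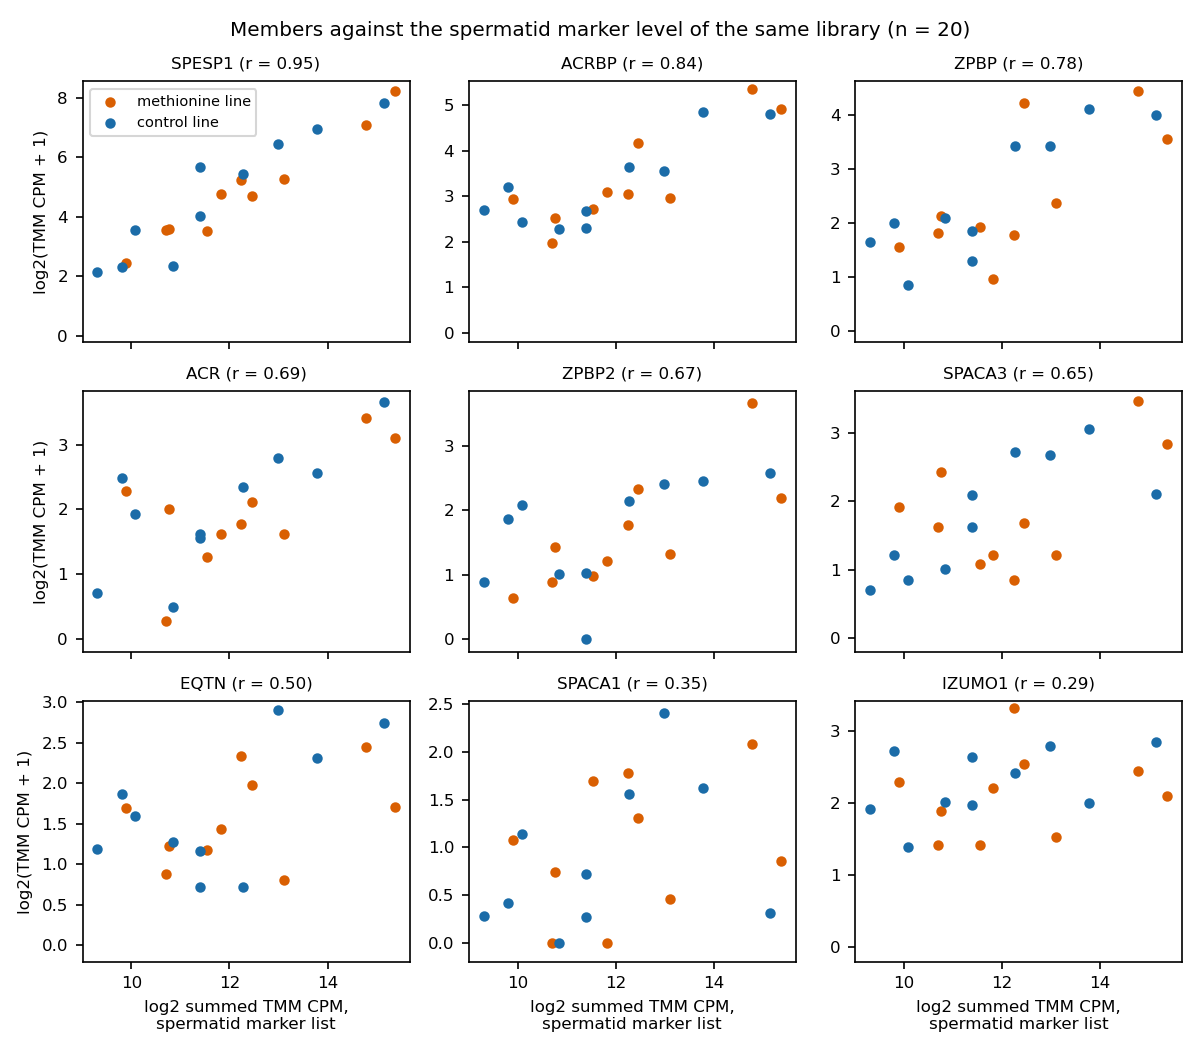
Level of each member, as log2(TMM CPM + 1), against the log2 summed TMM CPM of the spermatid marker list in the same library, for 20 libraries coloured by diet line. SPESP1 climbs along the whole range, ACRBP and ZPBP climb mainly in the upper part, and IZUMO1 and SPACA1 scatter; points of both lines intermix.

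SPESP1 followed the list most closely, with rho = 0.90 beside its r and with r = 0.87 in the 16 libraries left without the 4 richest. Its value was 303 CPM in ram SpermRNA359T, 229 CPM in ram SpermRNA485C, 135 CPM in ram SpermRNA382T and 124 CPM in ram SpermRNA475C, while the other 16 ran from 3.39 through 13.2 to 85.6 CPM. All 4 lay above all 16. Without the 2 libraries farthest from the median spermatid sum, SpermRNA359T and SpermRNA485C, r was 0.92 for SPESP1, 0.76 for ACRBP and 0.59 for SPACA1. Set against the spermatid list itself, SPESP1 gave 2.20 to 18.7 counts per 1000 spermatid counts, with a median of 6.37, and the pooled ratio in the 4 libraries was 1.12 times that in the 16. For every other member this pooled ratio was lower, from 0.47 for ACRBP down to 0.13 for IZUMO1. The 4 libraries were picked by the sum that is the divisor here, which by itself lowers this ratio. In pooled CPM of the 4 over the 16, the spermatid list as a whole had 9.45 and its median gene 5.91. With CCDC168 left out of the list, SPESP1 gave 3.21 to 42.2 counts per 1000, its pooled ratio was 1.58, and the others ran from 0.66 for ACRBP to 0.19 for IZUMO1.

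ACRBP had r = 0.84, and the 4 libraries again lay above all others, at 27.0 to 40.0 CPM against 2.94 through 6.12 to 16.9 CPM. ACRBP gave 0.693 to 9.17 counts per 1000 spermatid counts, and 1.79 to 17.98 with CCDC168 left out of the list. Without the 4 libraries r fell to 0.51.

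ZPBP had r = 0.78, which became 0.86 with CCDC168 left out of the list, above ACRBP at 0.84 and below SPESP1 at 0.89. In ZPBP 1 library outside the 4, that of ram SpermRNA500T, had 17.7 CPM, above 3 of them. ACR had r = 0.69, ZPBP2 0.67 and SPACA3 0.65. In each of these last 3 genes, 3 of the 4 libraries lay above all 16 others. Of the 28 genes of other organs described below, NKX2-1 had the most such libraries, also 3. The share of all genes with 3 or 4 libraries placed so was not counted. Without the 4 libraries these r came to 0.57 for ZPBP, 0.29 for ACR, 0.38 for ZPBP2 and 0.35 for SPACA3. Leaving out the libraries with the highest spermatid sums narrows the range of that sum, which can lower an r by itself. The median counts in the 16 others were 9.5 for ACR, 6 for ZPBP2 and 7 for SPACA3.

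EQTN (r = 0.50), SPACA1 (r = 0.35) and IZUMO1 (r = 0.29) had the lowest r under TMM. Without the 4 libraries these came to 0.17 for EQTN, 0.46 for SPACA1 and 0.27 for IZUMO1. For none of these 3 genes did any of the 4 libraries lie above all 16 others. IZUMO1 had 3.25 CPM in ram SpermRNA359T, the library with the highest spermatid sum in CPM. It had 6.16 CPM in ram SpermRNA485C, 4.44 CPM in ram SpermRNA382T and 3.01 CPM in ram SpermRNA475C. The other 16 libraries ran from 1.61 through 3.32 to 8.90 CPM and so enclosed all 4. SPACA1 had 0.237 CPM (a single count) in ram SpermRNA485C, the library second in that sum, and 4.31 CPM in ram SpermRNA413C.

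As pooled ratios of the 4 libraries to the 16 others, the members ordered as SPESP1 10.6, ACRBP 4.45, ZPBP 3.76, ACR 3.58, ZPBP2 3.20, SPACA3 3.07, EQTN 2.38, SPACA1 1.53 and IZUMO1 1.25. Over the 13577 genes of the filter this ratio had a median of 0.891 and a range of 0.0186 to 25.3, and 6255 genes were above 1. Most members did not pass that filter, so this background is not matched to them in counts. The 4 libraries were picked by the sum of the spermatid list, which builds high ratios into that list. As a whole it had 9.45, and its 32 genes had a median of 5.91 with a range of 1.21 to 11.5. To give these a scale, 28 genes best known from other organs, such as liver and muscle, were looked at as well; this list was chosen after the counts had been seen. It is not free of genes that these samples express: SERPINA1, the protease inhibitor alpha-1-antitrypsin, had a mean of 2358 CPM. The median level of these 28 genes in a library ran from 0.42 through 2.45 to 4.05 CPM. The 7 members below the filter had medians over the libraries from 0.74 (SPACA1) to 3.43 CPM (IZUMO1), within that range. Those of ACRBP and SPESP1 were 7.04 and 25.7 CPM. Whether the levels of the 7 came from sperm was not tested. The ratios of the 28 genes had a median of 1.31, with a range of 0.161 (SERPINA1) to 3.44 (APOB). The highest but APOB was MYOG at 2.81. The values of IZUMO1, SPACA1 and EQTN lay below that of MYOG, those of SPACA3 and ZPBP2 between MYOG and APOB, and those of ACR, ZPBP, ACRBP and SPESP1 above both. Markers of Sertoli and Leydig cells are 12 genes of somatic cells that stay in the testis. They summed to 28.1 to 61.4 CPM over all libraries, with a pooled ratio of 1.13. EQTN, IZUMO1 and SPACA1 had a higher r with this list than with the spermatid list, at 0.61, 0.60 and 0.54. For the other members it was lower than with the spermatid list, from 0.21 (SPESP1) to 0.52 (ACR). The reason was not tested.

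The ratios depend on the scale. With library totals in place of TMM they were 22.2 for SPESP1, 9.32 for ACRBP and 2.61 for IZUMO1 and 2.75 for the median gene of other organs, since this change multiplies all ratios by the same factor. The summed leukocyte and squamous markers were lower in the 4 libraries, with pooled ratios of 0.136 and 0.146 under TMM, although KRT5 (1.59), KRT6A (1.39), TP63 (1.17) and ITGAM (1.11) of these lists had ratios above 1. The members' r with the squamous list ran from -0.85 (ACR) to -0.44 (SPACA1), beside a median of -0.20 for the genes of other organs. The part of squamous RNA in the co-variation of the members was not tested.

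**Figure D4:**
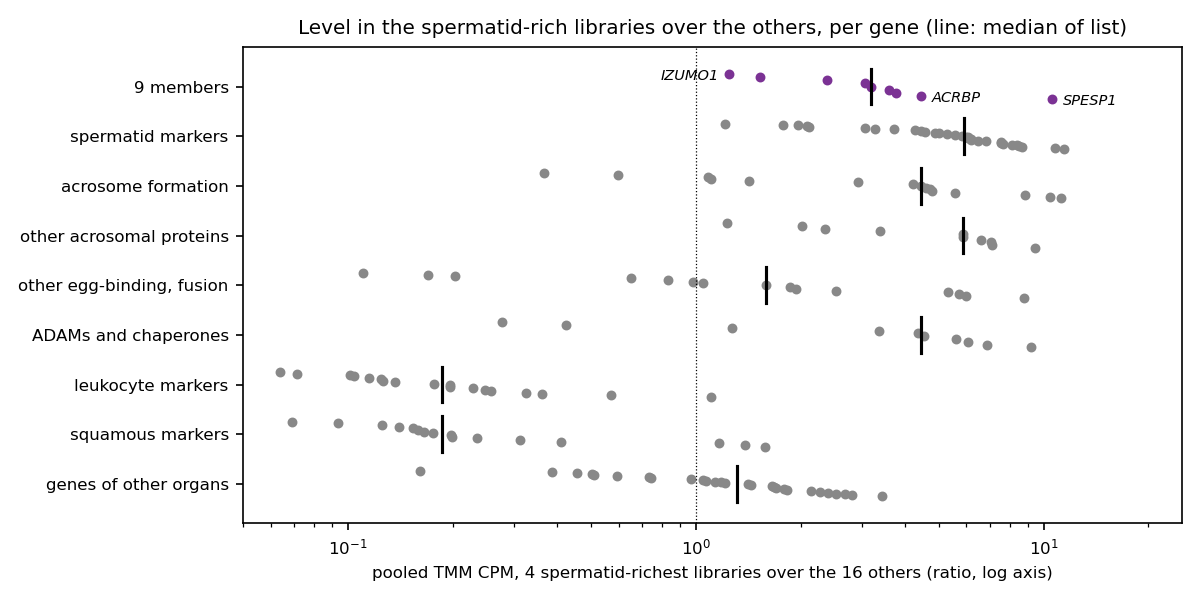
Pooled TMM CPM of each gene in the 4 libraries richest in spermatid markers over that in the 16 others, on a log axis, for the members and for 8 gene lists, with the median of each list as a black line. SPESP1 (10.6) lies with the highest spermatid markers and IZUMO1 (1.25) with the genes of other organs, which have a median of 1.31. The 4 libraries were picked by the sum of the spermatid markers, which builds high ratios into that list.

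Each member varied between rams by more than the counting error of its reads. The dispersion index, the Pearson chi-square of the counts over its degrees of freedom, is near 1 where counting error is all there is, and it ran from 2.71 for IZUMO1 to 528 for SPESP1. The 28 genes of other organs had a median index of 5.78. IZUMO1, EQTN (4.34) and SPACA1 (4.40) lay below it, and the other members above it. Separate animals are expected to pass 1. The index also grows with the number of counts, so that it does not rank the genes by how much they vary. The share of SPESP1 in the member counts ran from 12.2% in ram SpermRNA409C to 82.6% in ram SpermRNA359T.

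Among themselves, all 36 pairs of members had an r above 0, with a median of 0.57 and a range of 0.23 to 0.86, and 23 of them were above 0.5. Over all pairs of the 13577 genes of the filter, the median r was -0.01 and 19% were above 0.5. As 7 of the 9 members did not pass that filter, this background is not matched to them in counts. A background of genes with few counts was not drawn. The closest pair was ACRBP and ZPBP at 0.86. ACRBP was also the closest member to ACR (0.84), whose precursor it binds, to ZPBP2 (0.83) and to SPESP1 (0.78). SPACA3 was closest to ZPBP (0.74), EQTN to ZPBP2 (0.71), and SPACA1 to ZPBP2 (0.55). IZUMO1 was closest to EQTN at 0.58 and was the least alike member to 6 of the others, ACRBP, SPACA1, SPACA3, ZPBP, ZPBP2 and SPESP1. Without the 4 libraries the median r over the pairs was 0.50, and with library totals it was 0.81. With counts set per spermatid count the median was 0.67, with 28 pairs above 0.5 and 5 below 0, all 5 of them pairs of SPESP1; here both genes of a pair share a divisor that ran from 2695 to 259839 counts, which builds an r into the pairs.

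**Figure D5:**
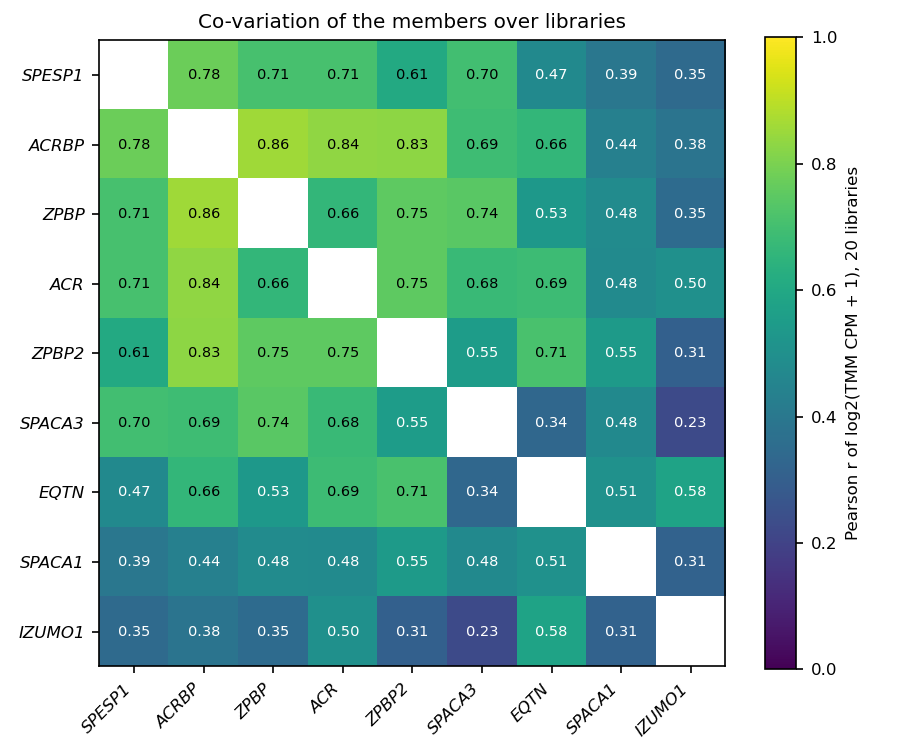
Pearson r of log2(TMM CPM + 1) over 20 libraries for each of the 36 pairs of members. The row of ACRBP holds the 4 highest values, 0.86, 0.84, 0.83 and 0.78, and the row of IZUMO1 holds the lowest value, 0.23.

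The genes outside the list with the profile most like that of ACRBP and SPESP1, the 2 members past the filter, were sought among 9080 genes with a mean of at least 10 CPM. They were LOC101113819 (r = 0.98), OTOGL (0.98), CALR3 (0.98), LNPK (0.98), PER3 (0.97), ADGRG7 (0.97), PLCZ1 (0.97) and IFT74 (0.97). PLCZ1 is the sperm phospholipase that starts calcium waves in the egg, and CALR3 is a testis chaperone of the endoplasmic reticulum that folds ADAM proteins. LOC101113819 ran from 7.20 through 19.1 to 140 CPM. With the profile of all 9 members, a search added after the counts were seen, the 8 most alike genes were KIAA1841, FAM189B, C22H10orf90, LOC101114079, GTSF1, PER3, DNAH8 and LOC105606646 (r from 0.95 to 0.96), of which only PER3 is also among the first 8.

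The other genes of the pathway gave the setting for the members. Of 15 measured genes for building the acrosome, 10 passed the filter and 0 were called between lines in either direction, with 3 of 10 above 0 and a median log2 fold change of -0.11. Over the 13577 genes of that fit the median was -0.05, and 57.2% were below 0. These 2 values are the background of the next 3 lists as well. DPY19L2, which anchors the acrosome to the nuclear envelope, ran from 11.9 through 98.2 to 973 CPM, with a log2 fold change of 0.25 ± 0.79 (SE). FAM71F1 ran from 10.2 through 75.2 to 999.8 CPM and had -0.18 ± 0.81, and SPATA16, a Golgi protein of the forming acrosome, had -0.48 ± 0.63. Their r with the spermatid list was 0.93, 0.94 and 0.77. Of the 15, 10 had an r above 0.5 and 1 below -0.5, SPATA46 at -0.58, named after its value was seen. Over the 13577 genes of the filter, 23.6% had an r above 0.5 and 28.5% an r below -0.5.

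Of 10 measured other acrosomal proteins, 5 passed the filter and 0 were called, with 3 of 5 above 0 and a median of 0.18. SPACA9 had a log2 fold change of 0.85 ± 0.75 (SE), the largest of that list, and CRISP2, a cysteine-rich secretory protein, had 0.18 ± 0.56. Their r with the spermatid list was 0.92 and 0.80, and 8 of the 10 had an r above 0.5, beside 23.6% of the genes of the filter.

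Of 15 measured other proteins of egg binding, fusion and activation, 9 passed the filter and 0 were called, with 6 of 9 above 0 and a median of 0.22. With the spermatid list, 6 of the 15 had an r above 0.5, among them PLCZ1 at 0.94, beside 23.6% of the genes of the filter. An r below -0.5 was found for 2 of the 15, beside 28.5% of the genes of the filter. They were the 2 genes of the list with the highest mean level. CD9, a tetraspanin that is also made by epithelia and leukocytes, had r = -0.76 with it and 0.95 with the squamous list. TMEM95, a sperm membrane protein of fusion, had r = -0.70 and 0.87, and its pooled level in the 4 libraries was 0.11 times that in the 16. SPACA4, the zona-binding protein of the outer surface, had r = -0.43 and a log2 fold change of 1.09 ± 0.66 (SE; unadjusted p = 0.110 in edgeR, adjusted p = 1.0). At an unadjusted p under 0.05 in the fit without the filter stood CRISP1 alone, at -1.11 ± 0.53; it was named after its value was seen.

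Of 10 measured genes listed as ADAM proteins or as testis proteins that fold and process them, of which ADAM18 and ADAM7 alone are ADAMs like ADAM2, 7 passed the filter and 0 were called, with 3 of 7 above 0 and a median of -0.02. ADAM18 ran from 4.04 through 20.1 to 211 CPM with r = 0.94 with the spermatid list, and ADAM7 from 1.62 through 6.85 to 31.5 CPM with r = 0.77. TPST2, a sulfotransferase of many tissues, had r = -0.67. Of the 10, 7 had an r above 0.5 and 2 below -0.5, beside 23.6% and 28.5% of the genes of the filter. The log2 fold changes of these 3 lay between -0.23 and -0.02.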

How the data were processed

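Sperm RNA of 20 F2 rams was sequenced by the authors as 100-base single-end reads, 1 library a ram, from semen washed with a somatic cell lysis buffer. The deposited values are raw counts per gene: per the study's methods, reads were trimmed with Trimmomatic and aligned with STAR to Oar_rambouillet_v1.0, and its gene counts were kept. The versions of Trimmomatic and STAR, the annotation and the strand column are not given in the sources used here, so reads of overlapping or antisense genes cannot be told apart. The methylation tables of the series were not used here. Total counts ran from 805831 to 13137757 a library, and no 2 libraries were identical. Intervals cover counting error or the spread of rams only.

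Members were matched by symbol. Members, gene lists and the rules for named genes were chosen with earlier results of these data known. The main test was edgeR 4.0.16 (quasi-likelihood, TMM, genes reaching a count of 15 in over 10 of the 20 libraries, Benjamini-Hochberg over all genes tested, threshold 0.05) in R 4.3.3. The filter follows the rule in the study's methods but kept another number of genes than stated there, for a reason not found here, so which genes pass is less sure. The test was run without the filter for the 7 members that did not pass, a choice made after the counts were seen. Standard errors are the log2 fold change over the root of F, and 95% intervals use 18 degrees of freedom. Sires within lines were tested with an F-test. List levels used 100000 resamples. Levels were put on the log2(CPM + 1) scale for correlations, and a pooled CPM is the sum of counts over the sum of scaled library sizes. Alternatives were DESeq2 1.42.0, its size factors, scaling to the spermatid list or to library totals, limma 3.58.1 with sire as a block, sums per sire, marker covariates, and leaving out libraries. The fits were tested on simulated data. Named were all members, the 2 genes of highest level and the 1 of largest change in each pathway list, and the 8 most alike genes.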

Additional observations from a re-analysis of the deposited data

Results flagged for a closer look

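Among 38 groups of 10 rams looked at (members and marker lists, each line apart), 4 had a highest or lowest ram whose gap to its neighbour took more than 0.466 of the range, and chance alone gives about 1 in 20. None of the 4 was a member, but this measure, taken on the log2 scale, looks at a single ram and does not see 2 rams that stand apart together, as in ACRBP. ZPBP2 in ram SpermRNA382T, the highest of the methionine line, had a gap of 0.440. The egg-binding and fusion list was highest in ram SpermRNA323T of the methionine line, with a gap of 0.535 of the range. Over all 20 libraries CD9 alone had a mean of 464 CPM, beside a mean of 759 CPM for the sum of this list. CD9 had r = 0.95 with the squamous list and r = -0.76 with the spermatid list. Which genes raised the sum in SpermRNA323T was not tested. The squamous list was lowest in ram SpermRNA382T of the methionine line (0.629) and in ram SpermRNA485C of the control line (0.478). The simple secretory epithelium list was also lowest in ram SpermRNA382T (0.621). Rams SpermRNA382T and SpermRNA485C were among the 4 libraries richest in spermatid markers, in which SPESP1 and ACRBP were highest.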

How the results depend on the processing

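Of the 9 members, 7 did not reach the count filter; member counts of a library did not follow its total, since SpermRNA468C, with the highest total, had 82 and SpermRNA413C, with the lowest, had 257. Between diet lines 0 genes were called in the 13577-gene fit and under its 30 alternatives. The fit without the filter called 0, 2 with DESeq2, and 0 to 1 with each ram left out (1 without SpermRNA340T and 1 without SpermRNA480T). No member passed the threshold under any alternative (lowest adjusted p 0.700). Between sires within lines, 10 genes were called without the filter, against 0 with it. No paired analysis was possible because the labels give the diet lines no shared replicate numbers: the F0 sire numbers are consecutive across the lines (3 and 4, 5 and 6, 9 and 10, 11 and 12, 23 and 24), but no source used here says that they mark the twins. IZUMO1 and EQTN kept their direction under all 29 alternatives each. The other members turned as follows, as log2 fold changes of methionine line over control line, and the cause was not tested. Scaled to the spermatid list, which moved the median of all genes to -0.71, ACRBP was at -0.56, SPESP1 at -0.51, ZPBP at -0.38 and ZPBP2 at -1.02. With library totals, SPESP1 was at -0.27, SPACA3 at -0.16, ZPBP at -0.017 and SPACA1 at -0.19. With the rams of a sire summed, SPESP1 was at -0.050, SPACA3 at -0.017, ZPBP at -0.079 and ZPBP2 at -0.027. With sire as a block in limma, ZPBP was at -0.033 and ZPBP2 at -0.089. With squamous and leukocyte levels as covariates, ACR was at 0.080 and ZPBP2 at -0.052. Without the libraries richer in squamous and leukocyte than in spermatid markers, ACR was at 0.20 and SPACA1 at -0.19. This fit kept only 5 libraries, SpermRNA359T and SpermRNA382T against SpermRNA485C, SpermRNA475C and SpermRNA413C. Without the 4 libraries richest in spermatid markers (chosen after seeing the data, as were library totals), SPESP1 was at -0.52, SPACA3 at -0.25, ZPBP2 at -0.37 and SPACA1 at -0.023. Leaving out each ram in turn gave -0.14 to 0.50 for ACRBP, -0.79 to 0.68 for SPESP1, -0.33 to 0.26 for ACR, -0.17 to 0.39 for SPACA3, -0.24 to 0.37 for ZPBP, -0.40 to 0.21 for ZPBP2 and -0.10 to 0.47 for SPACA1; ACRBP turned without SpermRNA359T (-0.01) or SpermRNA382T (-0.14). The sum of the early germ cell list turned to -0.0065 with DESeq2's size factors. The median r over the member pairs was 0.81 with library totals, against 0.57, and stayed within 1 SD of the pairs in the other 5 settings.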
